A study of Mus musculus with 9 samples.

Results

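The 10 hypoxia response genes Vegfa, Car9, Slc2a1, Ndrg1, Bnip3, Adm, Ankrd37, Egln3, Pdk1 and P4ha1 were read from 9 mouse liver tumors, out of 52176 gene symbols named in the tables of FPKM, fragments scaled by transcript length and by the mapped fragments of the library. They were taken by symbol, as targets of the hypoxia-inducible factors. No rule on their values was used, but earlier results of these data were known. Each of the 10 had 1 entry in each tumor, and none of these entries named a second gene. Their levels overlapped between PBS, nonresponsive and responsive tumors, and most of them were high or low together in the same tumors. The study asked what sets tumors that respond to an anti-PD-1 antibody apart from tumors that do not. Pieces of Hepa1-6 tumor, grown from a mouse hepatoma cell line, were placed in the liver of C57BL/6 males aged 6 to 8 weeks. The mice received PBS (3 tumors) or the anti-PD-1 antibody RMP1-14 at 5 mg per kg into the peritoneum, 5 times at intervals of 4 days from day 10 to day 26. On day 27 the antibody-treated tumors were sorted by size, the 3 largest were called nonresponsive and the 3 smallest responsive, and tumors of intermediate size were left out. Response was thus defined by tumor size, so size and response cannot be told apart. All tumors came from 1 cell line and were whole tumors trimmed of surrounding tissue. In such bulk samples fewer cells of a type and less RNA per cell cannot be told apart.

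Cells answer a lack of oxygen through the hypoxia-inducible factors HIF-1α and HIF-2α, encoded by Hif1a and Epas1. With oxygen, prolyl hydroxylases of the Egln family mark these factors for the von Hippel-Lindau ubiquitin ligase, and they are degraded. Without it they build up, bind the letters ACGTG or GCGTG in promoters and enhancers and raise genes for blood vessel growth, glucose uptake, glycolysis, acid export and matrix formation. Solid tumors that outgrow their vessels are known for such a response.

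The files gave FPKM and no counts, so the depth of each library is unknown. Cufflinks, the program that estimated the FPKM, also gave 95% bounds, and for values of at least 5 FPKM of these genes the bounds reached at most 27.5% to either side. This leaves out Vegfa in responsive tumor 2, which was listed at 72.5 with bounds from 0 to 75051, so the differences of Vegfa between responsive and other tumors are given with and without that tumor. Ankrd37 was listed at 0 in PBS tumor 2 and responsive tumor 1, and a listed 0 can be a failed estimate. Entries without a gene name took 19.2% to 81.5% of the summed FPKM of a tumor. The hepatocyte genes were expressed in every tumor, with a summed FPKM of 363 to 4512 in PBS tumors. The sum was 3099 to 10718 in the nonresponsive group and 9565 to 17036 in the responsive group. The hepatoma gene Afp was listed at 0.321 in nonresponsive tumor 1 and 0.646 in responsive tumor 1, and at 4.40 to 56.5 in the other 7 tumors; it was singled out after its values were seen. The 7 hepatoma genes as a list did not share this pattern: their mean in this pair was 3.12 and 3.14 on the log2(FPKM + 1) scale, against 2.96 to 3.83 in the others, and Igf2 was highest in the pair, at 5.47 and 6.13 FPKM. Nonresponsive tumor 1 and responsive tumor 1 also had the lowest mean of the proliferation genes, at 3.79 and 4.02 on the log2(FPKM + 1) scale against 5.25 to 6.34 in the others.

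Promoter sequence was at hand for 9 of the 10 genes in the RefSeq annotation of GRCm38.p6, as 11 windows of the 250 bases before an annotated start. The core letters of a hypoxia response element, ACGTG or GCGTG on either strand, stood in at least 1 window of all 9 genes. Such a match stood in 41.5% of all 27025 genes in that table, counted in the same way. It stood in 9 of the 11 windows here, against 38.6% of all windows in the annotation. The Vegfa window at chr17:46032378-46032627 and the Pdk1 window at chr2:71874654-71874903 held none. The matches of Vegfa were in its window at chr17:46025164-46025413, which lies further downstream on the minus strand. The count was 5 in Bnip3, 4 in Ankrd37 and 1 in Car9, with palindromic matches counted for both strands. In Car9 the match lay 13 bases before the start. These 3 promoters are shown because Car9 and Ankrd37 varied most between tumors and Bnip3 had the highest level. Matches are in capitals, 5′ to 3′ on the strand of the gene. A match describes the letters only, and binding was not measured.
Car9, chr4:43506776-43507025, plus strand: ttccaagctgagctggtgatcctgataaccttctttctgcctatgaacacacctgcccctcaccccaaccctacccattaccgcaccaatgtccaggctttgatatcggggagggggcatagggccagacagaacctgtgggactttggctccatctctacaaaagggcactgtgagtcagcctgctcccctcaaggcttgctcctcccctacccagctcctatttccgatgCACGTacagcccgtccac
Ankrd37, chr8:45999851-46000100, minus strand: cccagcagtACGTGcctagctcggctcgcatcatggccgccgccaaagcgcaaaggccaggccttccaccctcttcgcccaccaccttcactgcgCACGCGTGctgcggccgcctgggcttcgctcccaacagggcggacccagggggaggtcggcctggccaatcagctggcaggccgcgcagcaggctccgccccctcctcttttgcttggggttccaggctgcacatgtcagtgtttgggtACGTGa
Bnip3, chr7:138909507-138909756, minus strand: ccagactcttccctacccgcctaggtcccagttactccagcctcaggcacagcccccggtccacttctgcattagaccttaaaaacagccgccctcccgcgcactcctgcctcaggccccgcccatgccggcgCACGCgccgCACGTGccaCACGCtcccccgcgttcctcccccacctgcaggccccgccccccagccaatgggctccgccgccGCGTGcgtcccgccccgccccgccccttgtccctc

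On the FPKM scale, which is per length, Bnip3 was the highest of the genes in each group, with a mean of 118 ± 15.3 (SD, n = 3) in PBS, 110 ± 32.5 in nonresponsive and 97.4 ± 52.2 in responsive tumors. Only in PBS tumors did its values lie clear of those of the next gene, Ndrg1. Slc2a1, Vegfa, P4ha1 and Egln3 lay between means of 39.0 and 82.3 in the 3 groups, and those of them that stood next to each other in the order overlapped in every group. Pdk1 was lower, at means of 12.4 to 18.6, and Adm, at 4.43 to 7.85 in single tumors, overlapped with Ankrd37. Positions below are those of the deposited files, whose build was not settled: the processing notes name mm8, and the bounds of 9 of the 10 genes did not overlap their RefSeq bounds in GRCm38.

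Of the secreted factors, Vegfa (chromosome 17, 46327918 to 46343295) encodes the main growth factor of blood vessels. It had 60.0, 66.5 and 50.8 FPKM in the PBS tumors 1, 2 and 3. The nonresponsive tumors had 74.0, 32.5 and 60.0, and the responsive tumors 34.5, 72.5 and 30.3. Responsive tumors 1 and 3 were thus low and responsive tumor 2, whose estimate is the imprecise one, was near the top, and the groups overlapped. Adm (chromosome 7, 110226867 to 110229027) encodes adrenomedullin, a vasodilating peptide. It ranged only from 4.43 to 7.85 FPKM over the 9 tumors, and its group means were 6.09 ± 1.67 (SD, n = 3) in PBS, 6.20 ± 1.72 in nonresponsive and 6.07 ± 0.865 in responsive tumors. Its entry overlapped that of the predicted gene Gm28863, which reached at most 1.67 FPKM.

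Of the genes for glucose use, Slc2a1 (chromosome 4, 118965907 to 118995180) encodes the glucose transporter GLUT1. It had 48.6, 56.9 and 94.6 FPKM in PBS, 113, 55.8 and 77.5 in nonresponsive and 52.4, 73.0 and 42.4 in the responsive tumors 1, 2 and 3. The highest value was that of nonresponsive tumor 1 and the lowest that of responsive tumor 3. Pdk1 (chromosome 2, 71703567 to 71734202) encodes a mitochondrial kinase that inhibits pyruvate dehydrogenase, the enzyme that feeds pyruvate into respiration. Its values were 18.3, 15.8 and 18.0 in PBS, 15.0, 14.2 and 26.6 in nonresponsive and 9.88, 15.8 and 11.4 in the responsive tumors. Responsive tumors 1 and 3 were the lowest of the 9, and responsive tumor 2 was level with PBS tumor 2, so the groups overlapped.

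Car9 (chromosome 4, 43506965 to 43513729), which encodes the carbonic anhydrase of the cell surface that helps to export acid, varied most. The PBS tumors had 51.7, 41.8 and 24.6 FPKM, the nonresponsive tumors 0.762, 16.4 and 37.6, and the responsive tumors 0.383, 43.6 and 16.2. The tumors below 1 FPKM were the same pair in which Afp was below 1 and the proliferation genes were lowest. In this pair the mean of the mixed hepatoma list lay within the range of the other tumors. The part of these in the Car9 level was not tested. The highest tumor was 135 times the lowest. Within groups the pooled SD of Car9 was 2.03 on the log2(FPKM + 1) scale, against a median of 0.38 over 9992 symbols. Its entry overlapped that of Arhgef39 and Gm12454, which reached at most 3.58 FPKM.

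Bnip3 (chromosome 7, 138492564 to 138511248) encodes a mitochondrial protein that promotes mitophagy. It had 135, 108 and 111 FPKM in PBS, 143, 77.8 and 109 in nonresponsive and 62.4, 157 and 72.2 in the responsive tumors. The responsive group thus held both the highest and the lowest value. Ndrg1 (chromosome 15, 66801166 to 66841489), a stress gene that is strongly induced by hypoxia, behaved alike within the responsive group. Its values were 106, 62.4 and 70.1 in PBS, 35.6, 49.6 and 87.7 in nonresponsive and 19.5, 107 and 42.2 in the responsive tumors. It was low in nonresponsive tumor 1, where Bnip3 was high. P4ha1 (chromosome 10, 59159117 to 59209126) encodes the catalytic subunit of the enzyme that hydroxylates proline in collagen. It was the steadiest gene in PBS tumors, at 55.9, 52.9 and 54.7 FPKM, and had 68.7, 60.3 and 51.6 in nonresponsive and 34.2, 63.5 and 38.0 in the responsive tumors. Responsive tumors 1 and 3 were below all others, and responsive tumor 2 was above all PBS tumors.

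Egln3 (chromosome 12, 54225766 to 54250646) encodes a prolyl hydroxylase that is itself a target of the factors it marks. It had 32.3, 49.2 and 55.1 FPKM in PBS, 67.6, 37.2 and 35.8 in nonresponsive and 23.7, 57.1 and 36.4 in the responsive tumors, with the highest value in nonresponsive tumor 1 and the lowest in responsive tumor 1. Ankrd37 (chromosome 8, 46449938 to 46458744), an ankyrin repeat gene known as a target of HIF-1, was listed at 8.45, 0 and 12.9 in PBS, 19.1, 7.03 and 9.57 in nonresponsive and 0, 16.9 and 7.52 in the responsive tumors. Apart from the tumors listed at 0, its order resembled that of Egln3, with nonresponsive tumor 1 and responsive tumor 2 on top. Its entry overlapped that of Ufsp2, which reached 25.8 FPKM.

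**Figure D1:**
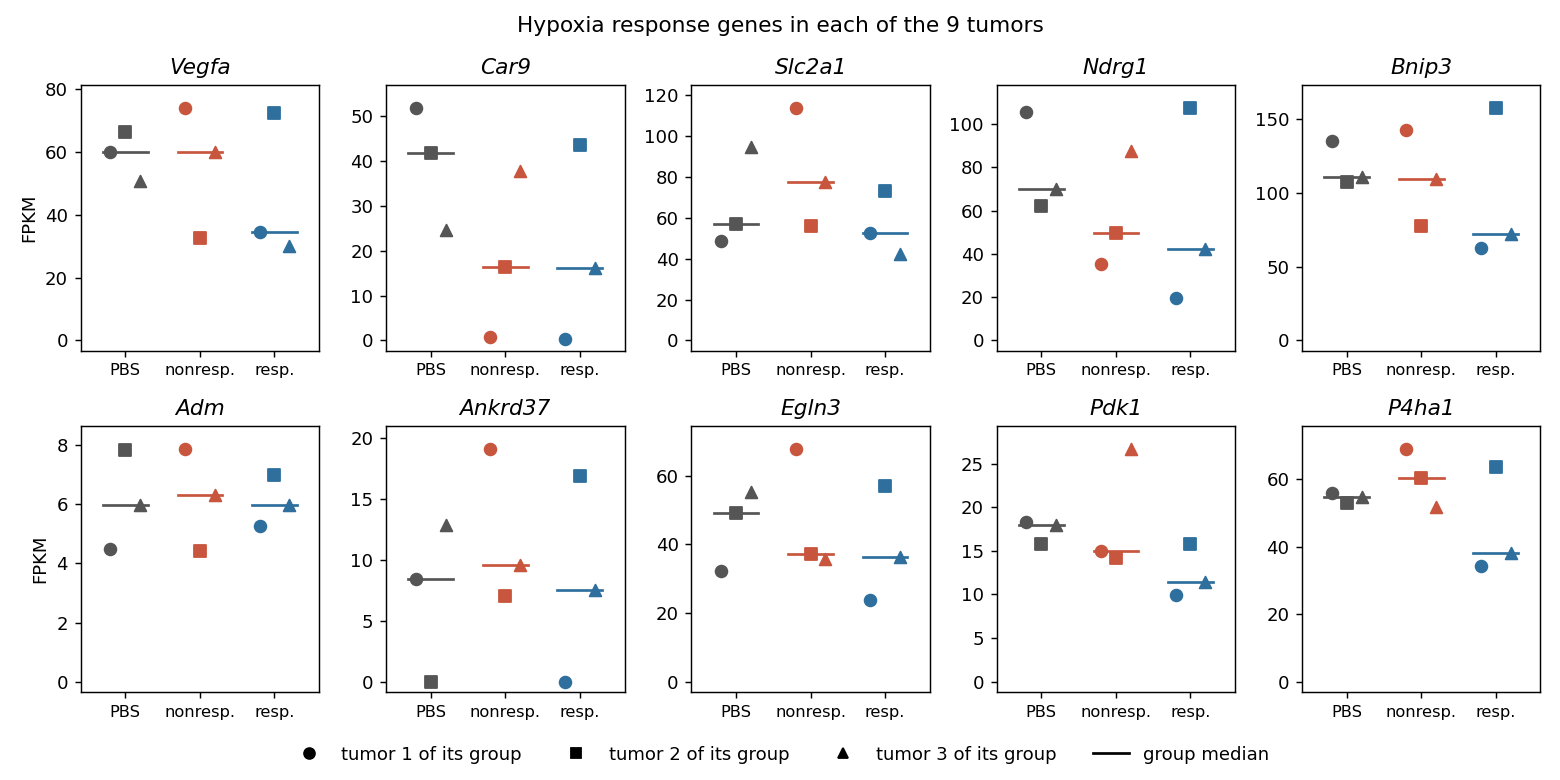
FPKM (y axis, linear, a scale for each panel) of each of the 10 hypoxia response genes in PBS, nonresponsive and responsive tumors (x axis, 3 each); symbols mark tumor 1, 2 or 3 of its group and lines the group medians. Responsive tumor 2 was the highest of its group for all 10.

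Responsive tumors were compared with nonresponsive tumors to ask whether the levels of these genes went with the response to the antibody. These are RNA levels, and no measurement of oxygen came with them. All 10 genes had a lower mean on the log2(FPKM + 1) scale in responsive tumors, where 57.5% of all 13832 symbols were lower, and 8 of the 10 lay below the median of all symbols. The log2 fold changes were small for most genes, at −0.01 for Adm, −0.05 for Car9, −0.25 for Bnip3, −0.26 for Ndrg1, −0.28 for Egln3, −0.30 for Vegfa, −0.45 for P4ha1 and −0.52 for both Pdk1 and Slc2a1. Ankrd37 was at −1.16 with a standard error of 1.09, which rests on responsive tumor 1, listed at 0; without that tumor it was 0.05. Vegfa was at −0.69 without responsive tumor 2. None of the 10 genes had an unadjusted p below 0.05 in limma's test (p from 0.150 to 0.981), where 5.49% of all symbols did, and none passed after Benjamini-Hochberg adjustment (adjusted p from 0.965 to 0.999), where 0.116% did. The groups overlapped for all 10, whereas they did not for 10.5% of all symbols. The 95% intervals of all 10 held 0, from −0.62 to 0.61 for Adm and from −4.12 to 4.01 for Car9, so changes of several fold could not be seen for the most variable genes. The median of the 10 was −0.29, against −0.07 over all symbols, and this rested on responsive tumor 1: it was 0.01 without that tumor and −0.71 without responsive tumor 2. Without nonresponsive tumor 1 and responsive tumor 1 together it was 0.09.

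Responsive tumors were compared with PBS tumors for the contrast between responding and untreated tumors. The mean was lower for 8 of the 10 genes, where 57.9% of all symbols were lower, with Adm at 0.01 and Ankrd37, listed at 0 in 1 tumor of each group, at 0.07. The most precise difference was that of Pdk1, whose log2 fold change was −0.48 (standard error 0.208, exact permutation p = 0.2, limma p = 0.0640, adjusted p = 0.298). P4ha1 was at −0.32 (standard error 0.263), Vegfa at −0.46 (standard error 0.361) and Ndrg1 at −0.78 (standard error 0.628). Car9 had the largest difference, at −1.92, and the largest standard error but that of Ankrd37, at 1.29, and was −0.48 without responsive tumor 1 and −2.99 without responsive tumor 2. None of the 10 had an unadjusted p below 0.05 in limma's test, where 17.2% of all 13841 symbols did, and none passed after adjustment, where 0.231% did. The groups overlapped for all 10, whereas they did not for 28.0% of all symbols. The median of the 10 was −0.35, against −0.11 over all symbols, and it was −0.17 without responsive tumor 1 and −0.73 without responsive tumor 2. Without responsive tumor 2, 5 of the 10 had an unadjusted p below 0.05, all lower, namely Vegfa at −0.84, Bnip3 at −0.80, Ndrg1 at −1.40, P4ha1 at −0.58 and Pdk1 at −0.66. In that setting 28.6% of all symbols had such a p, and 19.8% of all symbols were lower with it; none of the 10 passed after adjustment. Leaving out another responsive tumor moved them the other way: without responsive tumor 1 Bnip3 was at −0.13, Ndrg1 at −0.20, P4ha1 at −0.15, Pdk1 at −0.34 and Vegfa at −0.32, and Vegfa was at −0.23 without responsive tumor 3.

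Nonresponsive tumors were compared with PBS tumors for the contrast between treated tumors that stayed large and untreated tumors. The treated groups were picked by size, and no such pick of PBS tumors is described. In neither contrast with PBS tumors can the antibody and the pick be told apart. Here 6 of the 10 genes were higher and 4 lower, where 55.5% of all symbols were lower, with a median of 0.02 against −0.06 over all symbols. P4ha1 was at 0.13 (standard error 0.178), Slc2a1 at 0.30 (standard error 0.372), Ndrg1 at −0.52 (standard error 0.393) and Car9 at −1.87 (standard error 1.15). None of the 10 had an unadjusted p below 0.05 in limma's test, where 3.22% of all 13793 symbols did, and none passed after adjustment, where 0.0798% did. The groups overlapped for all 10, whereas they did not for 8.21% of all symbols. Without nonresponsive tumor 3, the tumor of its group with the most Car9 and Ndrg1, these 2 genes had an unadjusted p below 0.05, Car9 at −2.80 and Ndrg1 at −0.87, and 13.8% of all symbols did. Without nonresponsive tumor 1 they were at −0.58 and −0.23, and Slc2a1 was at 0.039 and P4ha1 at 0.034. Exact permutation tests of single genes gave two-sided p of at least 0.2 in all 3 comparisons, where the smallest that 3 against 3 tumors allow is 0.1. The comparisons share tumors, so they are not independent of each other.

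**Figure D2:**
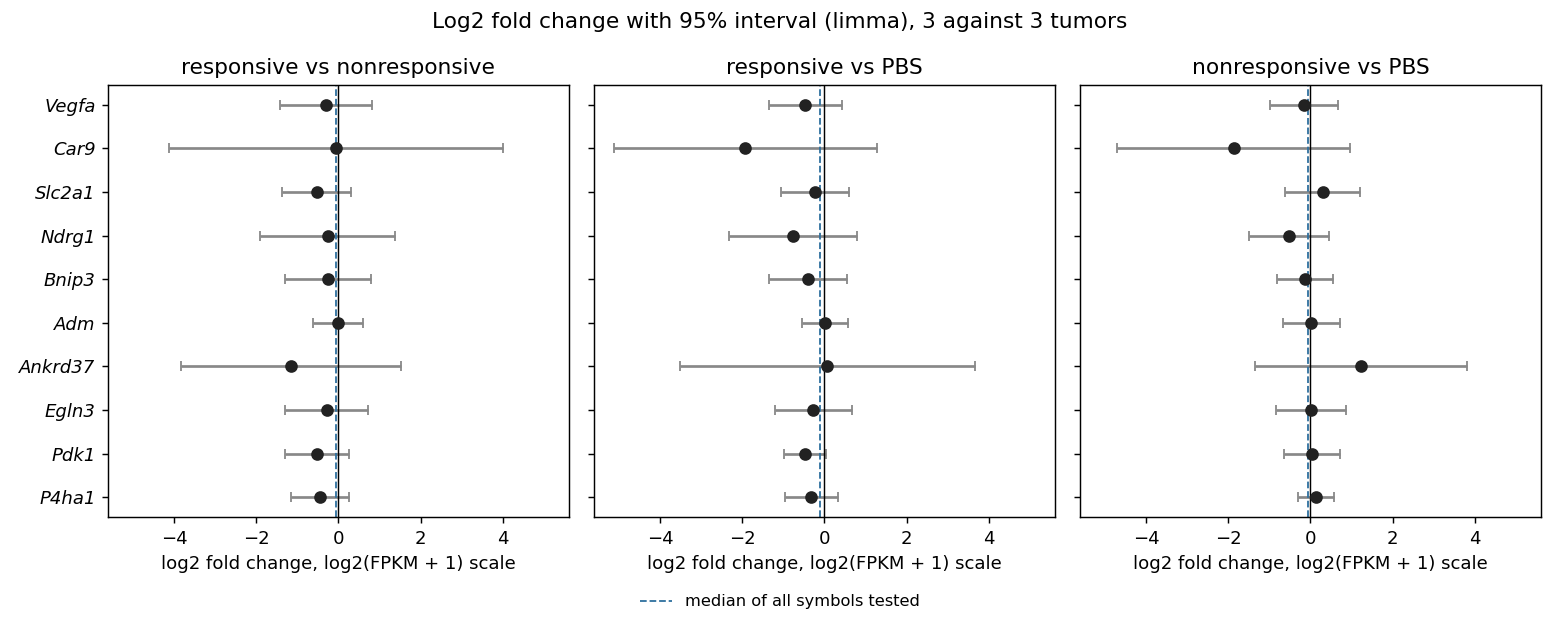
Log2 fold change on the log2(FPKM + 1) scale (x axis) of each hypoxia response gene (y axis) in the 3 comparisons of 3 against 3 tumors; points are estimates, bars 95% intervals from limma, and the dashed line is the median of all symbols tested. All intervals held 0, and those of Car9 and Ankrd37 were the widest.

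Within the responsive group the tumors stood far apart. Responsive tumor 2 was the highest of its group for all 10 genes and above the median of the 9 tumors for all 10. For Pdk1 it was above by only 0.004 on the log2(FPKM + 1) scale. Responsive tumor 1 was the lowest of the 9 tumors for 7 genes and among the lowest 3 for all 10. For Ankrd37, 1 of these 7, it was tied with PBS tumor 2, both listed at 0. Responsive tumor 3 was among the lowest 3 for 7 genes and above the median for none. Nonresponsive tumor 1 was the highest of the 9 for 6 genes but low in Car9 and Ndrg1. Averaged as log2(FPKM + 1), the 10 genes stood at 5.10 ± 0.20 (SD, n = 3) in PBS, 5.01 ± 0.26 in nonresponsive and 4.63 ± 0.88 in responsive tumors. The responsive tumors 1, 2 and 3 stood at 3.76, 5.51 and 4.62. Without Car9 and Ankrd37, which varied most, the means were 5.42 ± 0.06, 5.39 ± 0.29 and 5.06 ± 0.55. The PBS tumors were thus close together in the other 8 genes.

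**Figure D3:**
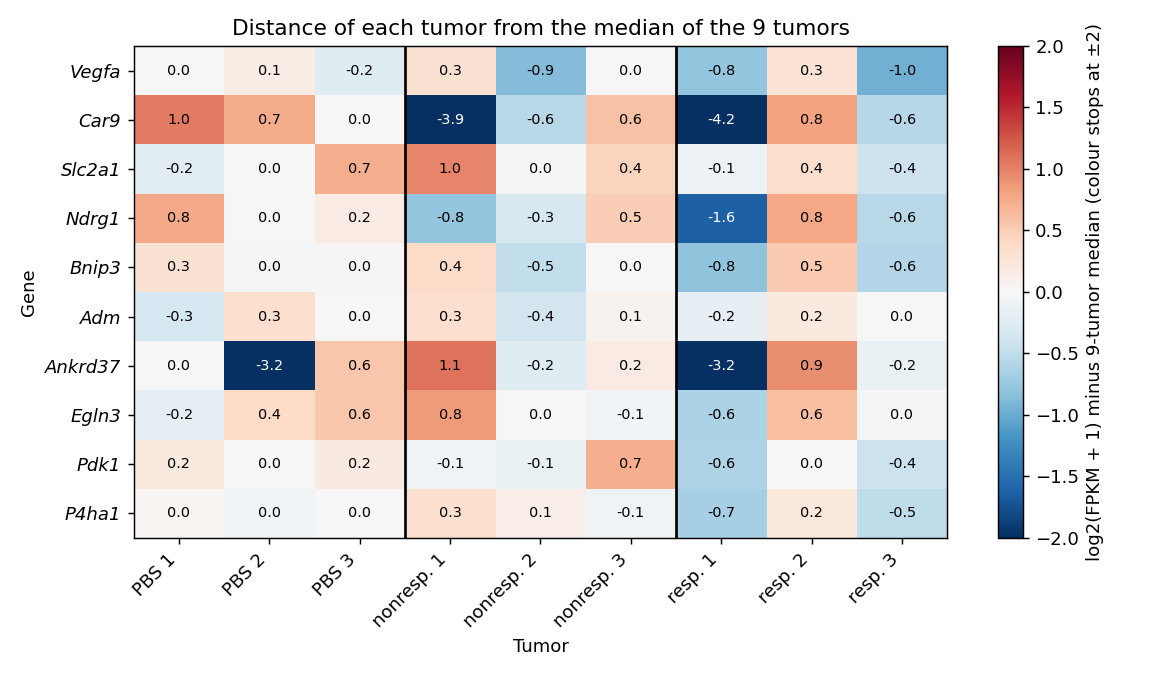
Distance of each tumor (x axis) from the median of the 9 tumors for each hypoxia response gene (y axis), as differences of log2(FPKM + 1); red is higher, blue lower, the colour stops at 2 and the number in each cell gives the difference. Responsive tumor 2 was above the median in all 10 rows and responsive tumors 1 and 3 below it in all 10. Pdk1 in responsive tumor 2 (0.004) and Adm in responsive tumor 3 (−0.002) were practically at the median.

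Over the 9 tumors the 45 pairs of genes had a median Pearson r of 0.54 on the log2(FPKM + 1) scale, with 43 pairs above 0 and 26 above 0.5. After each group's mean was taken out the median was 0.51. Pairs drawn from 7202 symbols with at least 5 FPKM in all tumors had a median of 0.05. The closest pair was Vegfa with Bnip3, at 0.92, followed by Car9 with Ndrg1, at 0.90, and Bnip3 with P4ha1, at 0.81. Vegfa and Bnip3 stayed at 0.91 without responsive tumor 2, where the Vegfa estimate was imprecise. Car9 and Slc2a1 were the least alike, at −0.21, and nonresponsive tumor 1 was the highest in Slc2a1 and among the lowest in Car9. The shared pattern leaned on responsive tumor 1: without it the median was 0.36 and 32 of the 45 pairs were above 0, whereas without any other tumor the median was 0.50 to 0.60. The points are 9 tumors that share their scaling and cell content across genes, and these values are a description.

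**Figure D4:**
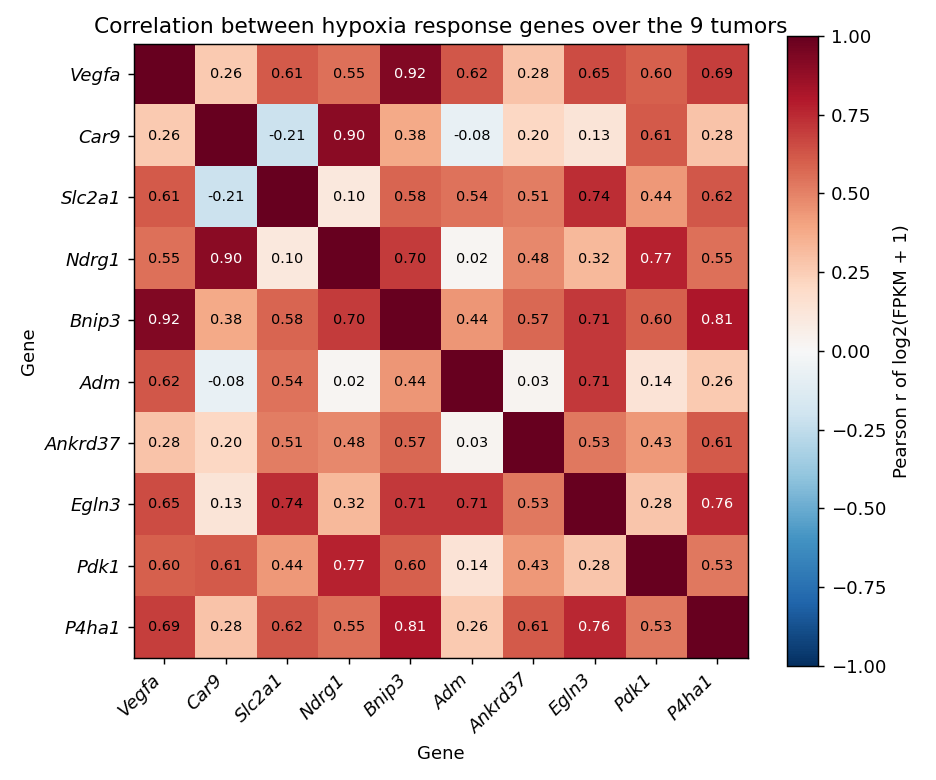
Pearson r of log2(FPKM + 1) over the 9 tumors for each pair of hypoxia response genes (both axes list the genes); red is positive and blue negative. Vegfa with Bnip3 (0.92) and Car9 with Ndrg1 (0.90) were the closest pairs, and Car9 with Slc2a1 (−0.21) the least alike.

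The 5 other symbols whose pattern over the 9 tumors was most like the mean of the 10 standardized genes were Hk1, Rara, Arf6, Rnf114 and Gsk3a, with Pearson r from 0.95 to 0.97. They were picked by this measure among the 7202 symbols. Hk1, which encodes a hexokinase, had 34.1, 35.1 and 40.0 FPKM in PBS, 36.6, 30.9 and 38.4 in nonresponsive and 17.0, 46.2 and 25.5 in the responsive tumors. Within the responsive group it was highest in tumor 2 and lowest in tumor 1, like 8 of the 10 genes.

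Cell type lists moved with the groups beside these genes. Against nonresponsive tumors all 12 hepatocyte genes were higher in responsive tumors, 5 of them with an unadjusted p below 0.05, where 5.49% of all symbols had one, and none was listed at 0 in any tumor. All 12 were also higher in responsive than in PBS tumors, 10 with an unadjusted p below 0.05, where 17.2% of all symbols had one. No gene of any cell type list passed after adjustment in limma's test (smallest adjusted p 0.886 against nonresponsive and 0.281 against PBS tumors). The hepatocyte mean on the log2(FPKM + 1) scale was 9.19, 7.95 and 8.29 in responsive tumors 1, 2 and 3, so that the responsive tumor with the least hepatocyte RNA had the most of the hypoxia genes. It was 6.21 to 7.97 in nonresponsive and 3.56 to 6.92 in PBS tumors, and PBS tumor 1, at the low end, was not the highest in the hypoxia genes. All 6 proliferation genes were lower in responsive than in PBS tumors, 1 with an unadjusted p below 0.05, beside the 57.9% of all symbols that were lower and the 17.2% with such a p. Between responsive and nonresponsive tumors all 5 B cell genes were higher, each with an unadjusted p below 0.05, with a median of 1.69, and all 6 T cell genes were higher, 1 of them with such a p. All 7 fibroblast genes were lower there, with a median of −0.63, none with such a p, and 5 of the 6 neutrophil genes were lower, also none. The skeletal muscle mean was 3.48 in PBS tumor 1 and 5.07 in nonresponsive tumor 3, against 0.36 to 1.74 in the others. Between responsive and nonresponsive tumors 7 of the 8 macrophage genes were lower, with a median of −0.58. All 7 endothelial genes (median −0.13) and all 6 proliferation genes (median −0.28) were lower too, beside 57.5% of all symbols. None of the genes of these lists had an unadjusted p below 0.05 in limma's test there. The part of these cells in the levels of the hypoxia genes was not tested.

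**Figure D5:**
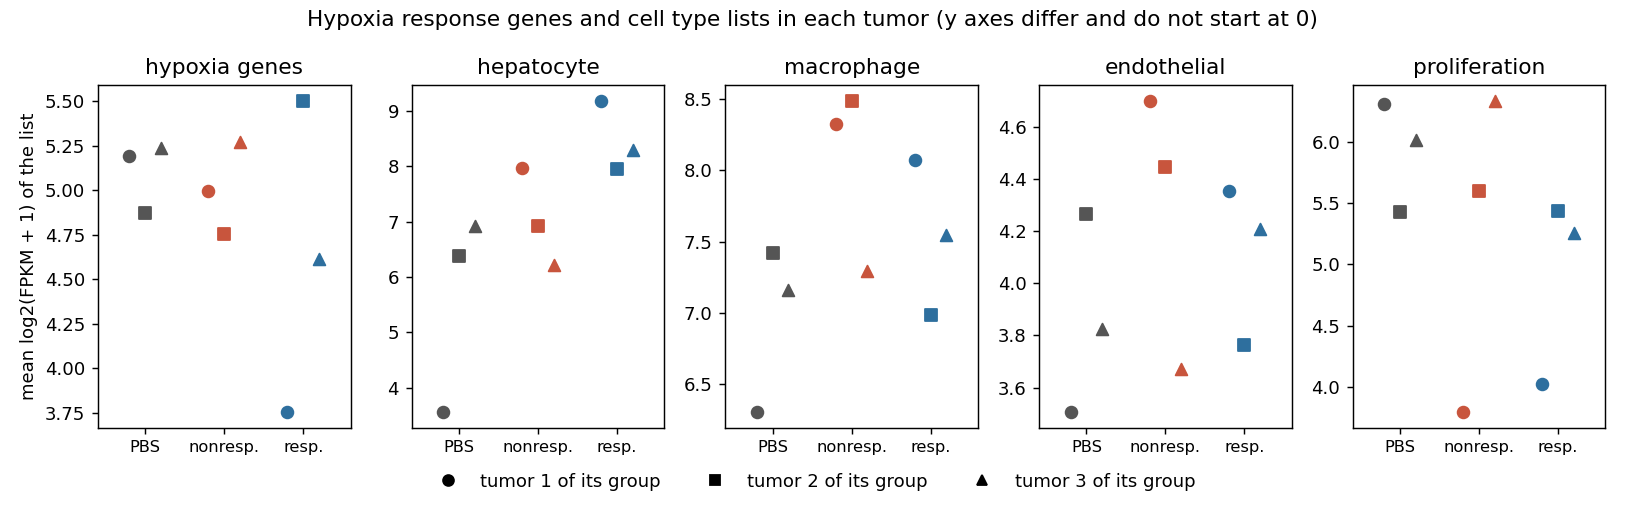
Mean log2(FPKM + 1) (y axes, which differ and do not start at 0) of the hypoxia response genes and of the hepatocyte, macrophage, endothelial and proliferation lists in each tumor of the 3 groups (x axis); symbols mark tumor 1, 2 or 3. Responsive tumor 1 was the lowest in hypoxia genes (3.76) and the highest in hepatocyte genes (9.19).

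The oxygen sensing genes themselves showed few differences. Of 12 such genes 11 were tested, since Hif3a was too low. Between responsive and nonresponsive tumors 8 were lower and 3 higher, where 57.5% of all symbols were lower. None had an unadjusted p below 0.05 in limma's test, where 5.49% of all symbols did. Hif1a had 65.8, 165 and 89.7 FPKM in PBS, 96.7, 152 and 87.0 in nonresponsive and 90.7, 44.6 and 76.8 in the responsive tumors. Its lowest value was in responsive tumor 2, the responsive tumor with the most of the target genes. Entries naming Hif1a also named Snapc1 or Snapc1l in some or all tumors, so these values need not be those of Hif1a alone. Epas1 was at 35.8 ± 13.4 (SD, n = 3), 49.0 ± 17.9 and 46.4 ± 12.3 in the 3 groups. Vhl, the substrate receptor of the ligase, was at 16.0 ± 1.83, 15.7 ± 0.121 and 14.4 ± 0.936, and its responsive values lay just below the nonresponsive ones (log2 fold change −0.12, exact permutation p = 0.1, limma p = 0.484, adjusted p = 0.974). Egln1, the main oxygen-sensing hydroxylase, was at 34.9 ± 3.88, 33.3 ± 3.76 and 29.2 ± 10.4. Egln2, another hydroxylase of the family, was the one gene of the list with an unadjusted p below 0.05 and no overlap, between responsive and PBS tumors. There 17.2% of all symbols had such a p, and the groups did not overlap for 28.0%. Entries naming Egln2 also named Rab4b, Mia, Gm21983 or Mir3101 in some or all tumors. Egln2 had 28.3, 30.2 and 27.2 FPKM in PBS and 69.6, 33.1 and 68.2 in responsive tumors, and its log2 fold change was 0.90 (standard error 0.319, exact permutation p = 0.1, limma p = 0.0326, adjusted p = 0.282). This p was above 0.05 when genes that share an entry were joined, where the change was 0.21, and also without any single tumor but responsive tumor 2, where it was 0.72 to 0.94. It was also above 0.05 in the joint fit of the 9 tumors, and with the named FPKM scaled to one sum, where the change was 0.75. Elob and Eloc, which encode the elongins of the ligase, were the most abundant of the list together with Hif1a, Elob at 400.1 to 627 and Eloc at 33.9 to 172 FPKM.

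Of 27 other hypoxia-induced genes 26 were tested, since Car12 was too low. Between responsive and nonresponsive tumors 22 were lower and 4 higher, with a median of −0.31, where 57.5% of all symbols were lower and their median was −0.07. The one with an unadjusted p below 0.05, where 5.49% of all symbols had one, was Plod2, which encodes a lysyl hydroxylase of collagen. It had 38.2, 41.3 and 23.4 FPKM in nonresponsive and 16.4, 19.7 and 16.1 in the responsive tumors, without overlap (log2 fold change −0.90, standard error 0.266, exact permutation p = 0.1, limma p = 0.0149, adjusted p = 0.886). The unadjusted p was above 0.05 without nonresponsive tumor 2 (−0.75) or responsive tumor 3 (−0.85). In this gene responsive tumor 2 stayed with the other responsive tumors. Against PBS tumors 18 of the 26 were lower in responsive tumors and 8 higher, where 57.9% of all symbols were lower. Between nonresponsive and PBS tumors 13 were lower and 13 higher, where 55.5% of all symbols were lower. None of the 26 had an unadjusted p below 0.05 there, where 3.22% of all symbols did. The most abundant of the list were the glycolytic genes Aldoa, at 439 to 1666 FPKM over the 9 tumors, Ldha, at 614 to 910, and Pgk1, at 239 to 522. Entries naming Ldha also named Gtf2h1 in some or all tumors. Within the responsive group Aldoa was highest in tumor 2 and lowest in tumor 1, like 8 of the 10 genes, at 439, 1666 and 669 in tumors 1, 2 and 3. None of these genes passed after adjustment.

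The 10 receptors and partner ligands of Vegfa and Adm split evenly between responsive and nonresponsive tumors, with 5 higher and 5 lower. There 57.5% of all symbols were lower. In each comparison 1 of the 10 had an unadjusted p below 0.05. Of all symbols 5.49% did between responsive and nonresponsive, 17.2% between responsive and PBS and 3.22% between nonresponsive and PBS tumors. Nrp2, a coreceptor for vascular growth factors, had 36.0, 34.5 and 34.2 FPKM in nonresponsive and 28.9, 23.3 and 21.2 in the responsive tumors (log2 fold change −0.51, standard error 0.188, exact permutation p = 0.1, limma p = 0.0364, adjusted p = 0.886). Nrp1, the related coreceptor, was higher in responsive tumors, at 58.1, 25.7 and 21.6, than in PBS tumors, at 9.05, 18.4 and 11.5 (log2 fold change 1.29, standard error 0.447, exact permutation p = 0.1, limma p = 0.0297, adjusted p = 0.281). The unadjusted p of Nrp2 was above 0.05 without any single tumor but responsive tumor 1, with changes of −0.52 to −0.41, and with upper-quartile scaling (−0.47), and that of Nrp1 without PBS tumor 1 (1.08) or PBS tumor 3 (1.24). Ramp3, an accessory protein of the adrenomedullin receptor, had 77.0, 39.7 and 19.5 FPKM in PBS and 6.86, 4.90 and 11.5 in nonresponsive tumors (log2 fold change −2.27, standard error 0.551, exact permutation p = 0.1, limma p = 0.00675, adjusted p = 0.718). Its relative Ramp2 was the most abundant of the list, at 58.5 to 85.8 FPKM over the 9 tumors, followed by Nrp2 and Ramp3. Entries naming Ramp2 also named Vps25, and those naming Nrp1 also named Mir1903, in some or all tumors. None of the 10 passed after adjustment in any comparison.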

How the data were processed

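RNA of 9 tumors was sequenced after TruSeq library preparation, and the tumors were grouped by their titles into PBS, nonresponsive and responsive, 3 each. The submitters' processing notes name Bowtie2 2.2.4, TopHat2 2.1.1 and build mm8. The deposited FPKM, with 95% bounds, were made by the authors with Cufflinks in each tumor on its own, so each tumor's transcript models were its own. A deposited table of the authors' Cuffdiff comparisons (group values, fold changes, p-values and q-values) was not used. The 10 genes, the other lists and the cell type markers were chosen with earlier results of these data known.

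FPKM were summed per symbol over the entries that name it, and 13 symbols with a failed estimate were left out. An entry naming several genes counted in full for each of them, which affects some genes of the other lists and of the cell type lists. For each pair of groups, a symbol entered the test if 3 or more of the 6 tumors reached 1 FPKM. limma 3.58.1 (R 4.3.3) was fitted to log2(FPKM + 1) with lmFit and eBayes with trend, two-sided, and p-values were adjusted by Benjamini and Hochberg over all symbols tested. Fold changes on this scale understate those of low genes. Exact permutation tests of single genes were computed over the 6 tumors in Python 3.11.15. On 10 simulated data sets of the responsive and nonresponsive tumors with 13573 features each, 200 of them changed by a log2 of 2, 90.0% of the changed and 5.22% of the unchanged features had p below 0.05. The changed features were drawn from those with a mean above 3 on the log2(FPKM + 1) scale, with independent normal noise. How often smaller changes, or changes in genes as low as Adm, would be found was not simulated. All 10 genes were named, with Hif1a, Epas1, Vhl and Egln1, and of each other list the genes with p below 0.05 and no overlap (at most 5 per comparison) and the 3 most abundant; a gene that this rule also names is not reported here. The 5 other symbols with the highest correlation to their mean pattern were named too. Per the study, the 3 tumors of a group came from 3 mice. No 2 tumors held like values (at most 1.14% identical). Alternatives were another pseudocount and filter, other scalings, other handling of shared entries, a joint fit of the 9 tumors, a block for the replicate number, and leaving out each tumor. Leaving out the pair of tumors with the lowest proliferation genes, and correlations without each tumor, were added after seeing the data.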

Additional observations from a re-analysis of the deposited data

How the results depend on the processing

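With a pseudocount of 0.1, no filter, a filter at 5 FPKM, shared entries joined or left out, upper-quartile scaling and all 9 tumors in 1 fit, none of the 10 hypoxia response genes had an unadjusted p below 0.05 in limma's test in any comparison, and none passed after adjustment in any setting. Scaling the named FPKM to one sum gave 1 of 10 in responsive against PBS tumors (Pdk1, −0.62). That scaling moved the median of all symbols from −0.07 to −0.24 between responsive and nonresponsive and from −0.11 to −0.25 between responsive and PBS tumors, and that of the 10 genes to −0.49 and −0.50. Leaving out single tumors gave 0 to 1 genes with p below 0.05 in responsive against nonresponsive, 0 to 5 in responsive against PBS and 0 to 2 in nonresponsive against PBS tumors, and the 1 gene of the first was P4ha1 (−0.72) without responsive tumor 2. The median of the 10 then lay at −0.71 to 0.01, −0.73 to −0.17 and −0.18 to 0.16.

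The numbers in the labels did not pair the tumors: deviations of same-numbered tumors from their group means correlated at −0.42 to 0.52, and 2 of the 9 pairs were above 0.1. With the replicate number as a block 0 of the 10 genes had p below 0.05 in any comparison, the median stayed at −0.29 between responsive and nonresponsive tumors, and over all symbols there were 934 in place of 759, 948 in place of 2387 and 237 in place of 444 calls in the 3 comparisons in the order above. The unadjusted p of Egln2 (0.90) and Nrp1 (1.29) in responsive against PBS and of Nrp2 (−0.51) in responsive against nonresponsive tumors was above 0.05 with the block.

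Directions of genes with small differences were not stable. Between responsive and nonresponsive tumors, leaving out single tumors gave a log2 fold change of −0.20 to 0.16 for Adm, −2.03 to 0.048 for Ankrd37, −1.35 to 1.39 for Car9, −0.59 to 0.022 for Egln3, −0.88 to 0.32 for Ndrg1, −0.70 to 0.26 for Aldoa, −0.22 to 0.48 for Egln2, −0.21 to 0.12 for Elob, −0.29 to 0.22 for Epas1 and −0.058 to 1.75 for Ramp3. Between responsive and PBS tumors it was −0.16 to 0.19 for Adm, −1.10 to 1.28 for Ankrd37, −0.58 to 0.036 for Egln3, −0.43 to 0.052 for Slc2a1 and −0.30 to 0.75 for Eloc. Between nonresponsive and PBS tumors it was −0.15 to 0.21 for Adm, −0.34 to 0.091 for Bnip3, −0.28 to 0.17 for Egln3, −0.23 to 0.20 for Pdk1, −0.40 to 0.18 for Vegfa, −0.15 to 0.0051 for Egln1, −0.71 to 0.060 for Eloc, −0.16 to 0.49 for Hif1a, −0.20 to 0.040 for Ldha and −0.089 to 0.061 for Vhl. Without the pair of tumors with the lowest proliferation genes, the change between responsive and nonresponsive tumors was 0.24 for Adm, 0.42 for Ankrd37, 0.21 for Bnip3, 0.095 for Car9, 0.31 for Egln3, 0.031 for Ndrg1, 0.083 for Vegfa, 0.10 for Elob and 0.059 for Epas1. Upper-quartile scaling gave 0.021 for Adm and 0.027 for Elob in that comparison, and the sum scaling −0.060 for Egln2 and −0.072 for Ramp2 there, −0.12 for Adm and −0.017 for Ankrd37 in responsive against PBS and 0.024 for Vhl in nonresponsive against PBS tumors. The causes were not tested. With FPKM only, the depth is unknown, and 3 tumors a group limit the precision.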
